A study of Danio rerio with 12 samples.

Results

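The genes described here are the nuclear genes of oxidative phosphorylation, the mitochondrial process that turns the energy of food into ATP. They were taken from the RNA-seq table by gene symbol, as every symbol that begins with nduf followed by a, b, c, s or v, with sdh followed by a, b, c or d, with uqcr, with cox followed by 4 to 8, or with atp5. This gave 105 of 25011 genes: 37 of complex I, 5 of complex II, 8 of complex III, 24 of complex IV, 17 of complex V and 14 assembly factors and inhibitors. The cells were zebrafish haemogenic endothelial cells, the endothelium of the embryonic aorta that gives rise to blood stem and progenitor cells. Embryos were taken at 36 hours post-fertilisation (hpf), and about 5000 trunk cells per sample were sorted that carried both mCherry, from a kdrl reporter, and GFP, from a runx1-enhancer reporter. Both transgenes were present in all 6 samples. Morphants 1, 2 and 3 came from embryos injected with a morpholino, an antisense oligonucleotide, against the DNA methyltransferase gene dnmt3ba, and controls 1, 2 and 3 are labelled WT. The sources used here give neither what the controls were injected with nor the number of embryos behind a sample, and the replicates are described as biological.

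In the inner mitochondrial membrane, complex I takes electrons from NADH and complex II from succinate. Complex III passes them on to cytochrome c, complex IV hands them to oxygen, and complex V, the ATP synthase, uses the proton gradient so built to make ATP. Every complex but complex II also holds subunits encoded by the mitochondrial genome, which were not analysed here. Many nuclear subunits have paralogues, and in mammals some of these are restricted to muscle, testis or low oxygen. Endothelial cells are known for drawing much of their ATP from glycolysis.

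The targeted gene dnmt3ba read 112, 197 and 159 TPM in morphants 1 to 3 and 122, 271 and 113 TPM in controls 1 to 3 (log2 fold change -0.04, SE 0.29, edgeR adjusted p = 0.95). The sources used here do not say whether the morpholino blocks splicing or translation, so this RNA level does not check the knockdown. Total estimated counts ran from 24397076 to 25132656 over the 6 libraries. On the leading principal component (37.8% of variance) the 3 morphants lay at -72.7, -12.7 and -59.2 and the 3 controls at 14.3, 118 and 11.96, so control 2 was the most extreme library. Endothelial markers summed to 6662, 7648 and 7399 TPM (a level scaled for gene length and for the library) in morphants 1 to 3 and 4402, 4151 and 5116 TPM in controls 1 to 3. Of 27 tested, 25 had a positive log2 fold change, morphant over control (median 0.49). At an unadjusted p under 0.05 in edgeR, 11 were higher (40.7%) and 0 lower, against 7.58% and 9.46% of all tested genes. Skeletal muscle markers, 30 genes in the table, summed to 12713, 26095 and 11282 TPM in morphants and 54131, 16743 and 81067 TPM in controls, and erythroid markers, 20 genes, to 10999, 8441 and 2892 TPM in morphants and 33215, 13237 and 12200 TPM in controls. Epidermal markers, 15 tested, had a median log2 fold change, morphant over control, of -1.75 with 13 negative, and neural markers, 14 tested, one of -0.71 with 13 negative. Neutrophil and macrophage markers, 16 tested, summed to 17395, 9690 and 31101 TPM in morphants 1 to 3 and 14708, 28199 and 8713 TPM in controls 1 to 3. None of these markers' part in the differences below was tested. In bulk samples such as these, fewer cells of a type and less RNA per cell cannot be told apart.

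Together the 105 genes made up between 2.66 and 5.61% of the transcripts in a library. Their summed level was 56132, 38686 and 46141 TPM in morphants 1 to 3, against 36079, 26610 and 36997 TPM in controls 1 to 3. Every morphant lay above every control, with morphant 2 close to controls 1 and 3. In controls, 75 of the genes averaged at least 100 TPM, 6 at least 1000 TPM and 8 under 10 TPM. The 4 most abundant in controls were atp5f1b, atp5mc1, cox7c and atp5mc3b. These encode the catalytic beta subunit of ATP synthase, a c-ring subunit, a small subunit of complex IV and another c-ring subunit, at 1542 ± 178, 1438 ± 199, 1317 ± 555 and 1247 ± 197 TPM (SD, n = 3). By complex, the median gene in controls read 666 TPM in complex V, 327 in complex III, 243 in complex IV, 222 in complex I and 152 in complex II, and 26.6 TPM among assembly factors and inhibitors.

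Morphant cells read higher than control cells for most of these genes by a small amount, and no gene passed the test. Of 102 genes with enough counts to test, 94 (92.2%) had a positive log2 fold change, morphant over control, against 47.6% of all 18846 genes tested. The median log2 fold change was 0.47 (0.34 to 0.53 across the complexes and the assembly factors), beside -0.04 over all genes tested. edgeR's quasi-likelihood test called 0 higher and 0 lower at an adjusted p under 0.05, where 0.0531% and 0.0106% of all tested genes were called, and the smallest adjusted p was 0.24. At an unadjusted p under 0.05 it placed 8 higher (7.84%) and 0 lower, against 7.58% and 9.46% of all tested genes, so the share higher was near the background. In CPM, the counts per library scaled for depth by TMM, the groups did not overlap for 19 genes higher in morphants (18.6%) and 0 lower, against 12.4% and 11.9% of all tested genes. In TPM, a scale compared after the results were seen, they did not overlap for 48 higher (47.1%) and 1 lower, against 11.7% and 9.49% of all tested genes. Overlap is meant in CPM from here on unless TPM is named. DESeq2 and limma-voom also called 0, and DESeq2 called 3.16% of all tested genes higher and 3.35% lower. At an unadjusted p under 0.05, DESeq2 placed 19 higher (18.6%), against 9.0% of all tested genes, and limma-voom 13 (12.7%), against 8.34%. The median SE of a log2 fold change was 0.31, and in 24 of 102 genes the SE exceeded the size of the log2 fold change.

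The direction was shared by the complexes, and the order of the libraries was largely shared. Over all 102 genes the median deviation from a gene's own mean was 0.53, -0.07 and 0.32 log2 CPM in morphants 1 to 3. In controls 1 to 3 it was 0.08, -0.82 and 0.06. By that median, morphants 1 and 3 lay highest in every complex and in the assembly factors and inhibitors. Controls 1 and 3 came next, then morphant 2, and control 2 was lowest. In complex IV, morphant 3 (0.46) lay above morphant 1 (0.41) and control 3 (0.17) above control 1 (0.10). Among assembly factors and inhibitors, controls 1 and 3 (-0.10 and -0.15) lay close to morphant 2 (-0.17). Control 2 was the lowest library for 90 of 102 genes, morphant 1 was the highest for 83, and morphant 2 lay below controls 1 and 3. Without control 2 the median log2 fold change was 0.26, with 9 genes higher (8.8%) and 1 lower at an unadjusted p under 0.05, against 7.93% and 9.94% of all genes tested. Without morphant 1, and likewise without morphant 3, 0 of the 102 genes were at an unadjusted p under 0.05, against 4.52% and 4.44% of all genes tested that were higher. Without control 2 and morphant 2 together, the median was 0.40 and 5 genes were called higher (4.9%) and 0 lower, against 2.56% and 4.54% of all genes tested. In those 4 libraries 43 genes (42.2%) were higher and 1 lower at an unadjusted p under 0.05, against 11.7% and 14.0% of all genes tested. Control 2 and morphant 2 had the lowest median deviation of their groups over these same genes. Leaving both out therefore narrows the spread within groups and leaves fewer samples a group, so these calls add no separate support. The 5 called were uqcrb (log2 fold change 0.89, SE 0.16, adjusted p = 0.026), ndufa6 (0.81, SE 0.17, adjusted p = 0.037), atp5pf (0.71), atp5mf (0.74) and ndufaf1 (0.69), the last 3 with adjusted p between 0.047 and 0.048.

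**Figure D1:**
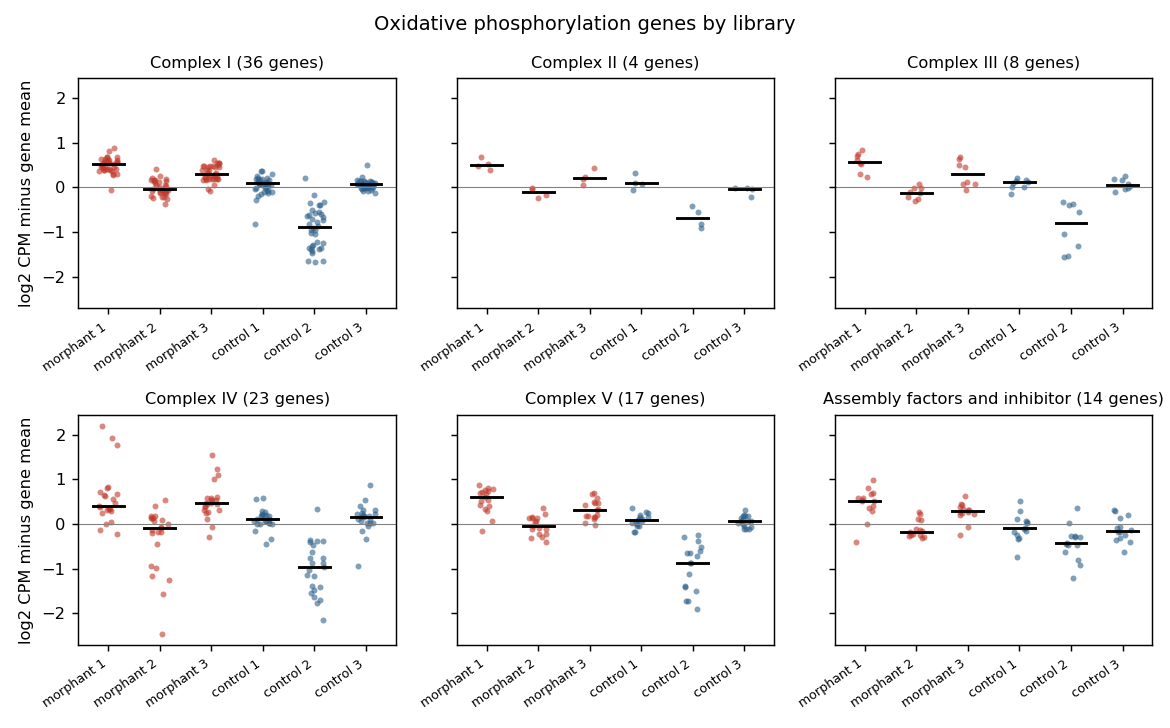
Each point is a gene's log2 CPM (counts scaled for depth by TMM) in a library minus its mean over the 6 libraries, by complex, with morphants in red left of controls in blue and the median as a black bar. Control 2 lies lowest in every panel (median -0.82 over all 102 genes), and the medians of morphants 1 and 3 (0.53 and 0.32 over all) lie above those of the other libraries.

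**Figure D2:**
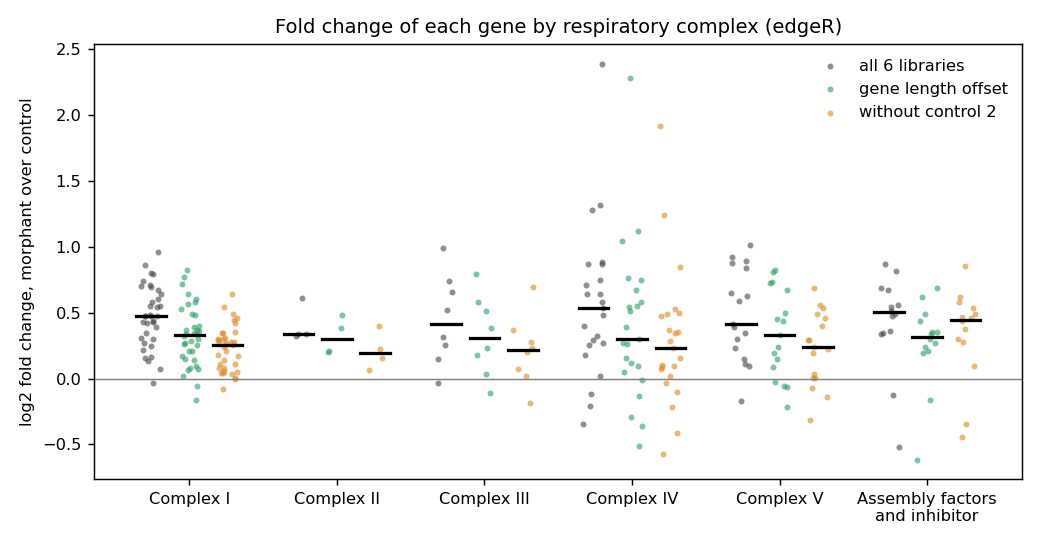
Each point is the log2 fold change of a gene, morphant over control, from the test on all 6 libraries, with a correction for gene length, or without control 2, and bars are medians by complex. Medians lie between 0.34 and 0.53 with all libraries and between 0.19 and 0.45 without control 2.

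Complex I, the NADH dehydrogenase, had 36 tested genes, of which 35 had a positive log2 fold change (median 0.47). At an unadjusted p under 0.05, 3 were higher (8.33%, against 7.58% of all tested genes). Those 3 were ndufa6, ndufc2 and ndufv3. ndufa6, an accessory subunit that binds the acyl carrier protein, read 751, 494 and 621 TPM in morphants 1 to 3 and 350.4, 209 and 385 TPM in controls 1 to 3 (log2 fold change 0.96, SE 0.36, adjusted p = 0.26). ndufc2, an accessory subunit of the membrane arm, read 414, 388 and 368 TPM in morphants and 234, 138 and 255 TPM in controls (0.86, SE 0.34, adjusted p = 0.26). In both, all morphants lay above all controls, and control 2 was the lowest library. ndufv3, an accessory subunit of the NADH-binding part, read 80.5, 68.6 and 65.9 TPM in morphants and 44.3, 60.0 and 52.6 TPM in controls (0.47, SE 0.17, adjusted p = 0.24). Here control 2 was the highest control and the groups still did not overlap.

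Several core subunits of complex I, those that carry flavin or iron-sulphur clusters or bind the quinone, had smaller log2 fold changes than the accessory subunits named above. The log2 fold changes were 0.17 for ndufs1, 0.25 for ndufs3, 0.42 for ndufs7, 0.13 for ndufv1 and 0.22 for ndufv2, with SE between 0.18 and 0.27. ndufs8a, another core subunit, was the 1 gene of the complex with a negative value, at 19.1, 19.3 and 22.8 TPM in morphants and 9.91, 29.5 and 26.1 TPM in controls (-0.04, SE 0.35). Its paralogue ndufs8b was listed at 0 in all libraries but morphant 1, where it read 0.13 TPM. The most abundant genes of the complex were ndufb8 and ndufb9, accessory subunits of the membrane arm. ndufb8 averaged 673 ± 171 TPM (SD, n = 3) in morphants, against 490.2 ± 95.7 TPM in controls, and ndufb9 averaged 646 ± 117 TPM in morphants, against 443 ± 37.2 TPM in controls. The mitochondrial acyl carrier proteins ndufab1a and ndufab1b had log2 fold changes of 0.39 and 0.27 (SE 0.23 and 0.27).

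Complex II, succinate dehydrogenase, also acts in the TCA cycle. Its 4 tested genes all had a positive log2 fold change (median 0.34), and none reached an unadjusted p under 0.05. sdhb, the iron-sulphur subunit, read 479, 277 and 383 TPM in morphants 1 to 3 and 287, 213 and 235 TPM in controls 1 to 3 (0.61, SE 0.30). Morphant 2 lay below control 1. sdha, the flavoprotein, read 235, 172 and 167 TPM in morphants and 143, 160.1 and 152 TPM in controls (0.34, SE 0.21). Every morphant was above every control on this scale, while on the CPM scale used for the test the groups overlapped. sdhc, a membrane anchor, read 292, 232 and 249.5 TPM in morphants and 251, 151 and 198 TPM in controls (0.34, SE 0.31). Of the duplicated anchor, sdhdb read 159.8, 97.7 and 119 TPM in morphants and 104, 96.0 and 100.3 TPM in controls (0.32, SE 0.26), and sdhda was at 1.26 TPM or less in every library.

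Complex III, the cytochrome bc1 complex, had 8 tested genes, 7 with a positive log2 fold change (median 0.42). At an unadjusted p under 0.05, 1 was higher (12.5%, against 7.58% of all tested genes). That gene was uqcrb, a small subunit next to the quinone site, at 601, 374 and 509 TPM in morphants 1 to 3 and 280.0, 173 and 285 TPM in controls 1 to 3 (log2 fold change 0.99, SE 0.35, adjusted p = 0.24). All morphants were above all controls. The other small subunits uqcrq, uqcr10 and uqcrh had log2 fold changes of 0.74, 0.66 and 0.52 (SE 0.44, 0.44 and 0.33). In CPM the groups overlapped for all 3, while in TPM they overlapped for uqcrq alone. The larger subunits stood nearer to 0: uqcrc1, a core protein, at 0.32 (SE 0.26), the Rieske iron-sulphur protein uqcrfs1 at 0.15 (SE 0.21), uqcrc2b at 0.25 (SE 0.28) and uqcrc2a at -0.03 (SE 0.21). uqcrc2a read 164, 125 and 127 TPM in morphants and 134, 140.3 and 151 TPM in controls. The most abundant genes of the complex over all libraries were uqcr10, at 658 ± 156 TPM in morphants and 404 ± 165 TPM in controls, and uqcrh, at 587 ± 113 TPM in morphants and 401 ± 94.8 TPM in controls (SD, n = 3).

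Complex IV, cytochrome c oxidase, had the widest spread of values. Of 23 tested genes 20 had a positive log2 fold change (median 0.53), and values ran from -0.34 to 2.39. At an unadjusted p under 0.05, 1 was higher (4.35%, against 7.58% of all tested genes). ndufa4 and its paralogues were counted here, since that subunit belongs to complex IV. cox7c, a small subunit and the most abundant gene of the complex, read 2966, 2038 and 2381 TPM in morphants 1 to 3 and 1601, 678 and 1672 TPM in controls 1 to 3 (0.87, SE 0.44, adjusted p = 0.36). cox7b, another small subunit, read 1468, 934 and 1195 TPM in morphants and 758, 362 and 769 TPM in controls (0.88, SE 0.41, adjusted p = 0.32). In both genes the groups did not overlap, and control 2 was less than controls 1 and 3 by a wide margin. ndufa4l, the next most abundant over all 6 libraries, averaged 1202 ± 203 TPM in morphants and 853 ± 149 TPM in controls (0.48, SE 0.29). The gene under the unadjusted threshold was cox5ab, the paralogue of cox5aa, at 625, 396 and 491 TPM in morphants and 305, 236 and 348 TPM in controls (0.75, SE 0.31, adjusted p = 0.28). cox4i1, the main paralogue of subunit 4, which is needed to assemble the enzyme, read 583, 567 and 584 TPM in morphants and 610.5, 465 and 613 TPM in controls (0.02, SE 0.26).

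The 3 negative values of complex IV were those of cox8b, ndufa4 and ndufa4l2a. cox8b, a paralogue of subunit 8 known as the heart and muscle form in mammals, read 143, 160.1 and 151 TPM in morphants and 186, 159.9 and 224 TPM in controls (-0.34, SE 0.25). Without control 2 it was at -0.57, and it was the gene at an unadjusted p under 0.05 on the lower side there. Controls 3 and 1 were its highest libraries, as for the muscle markers, whose part was not tested. ndufa4 read 153, 65.1 and 143 TPM in morphants and 164, 123 and 128 TPM in controls (-0.21, SE 0.38). ndufa4l2a read 1.87, 2.27 and 1.33 TPM in morphants and 1.86, 3.18 and 1.21 TPM in controls (-0.12, SE 0.52). ndufa4l2, whose mammalian counterpart is induced by low oxygen, was also near the bottom of the range, at 2.13, 5.13 and 4.81 TPM in morphants and 1.18, 1.84 and 1.92 TPM in controls (1.31, SE 0.72).

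Complex V, the ATP synthase, had 17 tested genes, 16 with a positive log2 fold change (median 0.41). At an unadjusted p under 0.05, 2 were higher (11.8%, against 7.58% of all tested genes). Log2 fold changes varied both within the catalytic F1 head and within the membrane part. atp5f1b, the beta subunit and the most abundant of all 105 genes in controls, read 2824, 1431 and 1761 TPM in morphants 1 to 3 and 1337, 1664 and 1624 TPM in controls 1 to 3 (0.39, SE 0.29). Morphant 1 stood far above the other libraries and morphant 2 was below controls 2 and 3. atp5fa1, the alpha subunit, was the negative gene, at 653, 705 and 700.5 TPM in morphants and 722, 776 and 818 TPM in controls (-0.17, SE 0.20). All morphants read below all controls in TPM, while in CPM the groups overlapped. In the membrane part, atp5mc1 read 2820, 1784 and 2109 TPM in morphants and 1615, 1223 and 1478 TPM in controls (0.62, SE 0.29, adjusted p = 0.33). The c-ring genes atp5mc3a and atp5mc3b were nearer to 0, at 0.11 (SE 0.17) and 0.10 (SE 0.31). The 2 genes under the unadjusted threshold were atp5mea, a paralogue of subunit e, at 183, 144 and 139 TPM in morphants and 86.3, 48.9 and 92.0 TPM in controls (1.01, SE 0.37, adjusted p = 0.25), and atp5pf, coupling factor 6 of the stalk, at 801, 549 and 684 TPM in morphants and 432, 229 and 403 TPM in controls (0.88, SE 0.36, adjusted p = 0.28). Their groups did not overlap. Nor did those of atp5l, subunit g, at 1556, 1131 and 1225 TPM in morphants and 824, 421 and 885 TPM in controls (0.84, SE 0.39, adjusted p = 0.32).

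The 14 assembly factors and inhibitors were on the whole far less abundant than the subunits, apart from the inhibitors of ATP synthase. Of these 14, 12 had a positive log2 fold change (median 0.50). At an unadjusted p under 0.05, 1 was higher (7.14%, against 7.58% of all tested genes). That gene was atp5if1a, which in zebrafish is also needed for haem synthesis in red cells. It read 992, 808 and 979 TPM in morphants 1 to 3 and 476, 364 and 659 TPM in controls 1 to 3 (0.87, SE 0.33, adjusted p = 0.26), with no overlap. Erythroid markers ran the other way between the groups, with 20 of 20 negative and a median log2 fold change of -1.61. Its paralogue atp5if1b read 681, 372 and 467 TPM in morphants and 369, 260.5 and 314 TPM in controls (0.67, SE 0.32). ndufaf1, a complex I assembly factor, read 136, 82.8 and 123 TPM in morphants and 71.2, 98.3 and 75.9 TPM in controls (0.51, SE 0.22), so that control 2 lay above morphant 2. sdhaf3, which helps to mature sdhb, read 27.4, 11.97 and 15.5 TPM in morphants and 10.6, 13.9 and 7.74 TPM in controls (0.81, SE 0.36). The negative values were those of sdhaf1, another factor for sdhb, at 2.53, 3.16 and 3.19 TPM in morphants and 4.64, 5.87 and 2.62 TPM in controls (-0.52, SE 0.38), and of ndufaf2 (-0.13, SE 0.32).

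Paralogues of the same subunit were then compared within each library, as the log2 ratio of their levels in TPM plus 1. A scale factor of the library largely cancels in such a ratio. In 6 of 12 pairs the morphant and control ratios did not overlap. Ratios of other gene pairs were not computed, so this count has no background share beside it. In each of the 6 the exact two-sided permutation test gave p = 0.1, the smallest that 3 samples against 3 allow. The adjusted p was 0.2 over the 12 pairs, so no pair could pass. The widest of the 6 was cox8a over cox8b, with a difference of 0.80. It read 2.88, 2.59 and 2.72 in morphants 1 to 3 and 2.24, 1.59 and 1.95 in controls 1 to 3. cox5aa over cox5ab was the tightest, at 1.08, 1.22 and 1.25 in morphants and 1.57, 1.67 and 1.58 in controls (-0.42). cox4i1 over cox4i2, whose second member is a low-oxygen and lung form in mammals, read 2.69, 2.43 and 2.46 in morphants and 3.08, 3.68 and 2.96 in controls (-0.72). The mean ratios of cox6b1 over cox6b2, a testis form in mammals, were -0.68 ± 0.60 (SD, n = 3) in morphants, against -0.07 ± 0.17 in controls, and morphant 2 alone stood at -1.37. cox7a2a over cox7a2b averaged 2.88 ± 0.34 (SD, n = 3) in morphants, against 2.37 ± 0.15 in controls, and atp5mea over atp5meb averaged -1.98 ± 0.15 in morphants, against -2.41 ± 0.12 in controls.

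The other 6 pairs overlapped. The differences were 0.27 for atp5if1a over atp5if1b, 0.01 for atp5mc3a over atp5mc3b, -0.41 for cox4i1 over cox4i1l, 0.02 for cox6a1 over cox6a2, 0.11 for ndufab1a over ndufab1b and -0.27 for uqcrc2a over uqcrc2b. The exact permutation p ran from 0.2 to 1. These p-values do not show that the ratios were alike, since with 3 samples a group their range was wide, as in cox4i1 over cox4i1l (3.28 to 7.62 in morphants and 4.53 to 6.79 in controls).

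**Figure D3:**
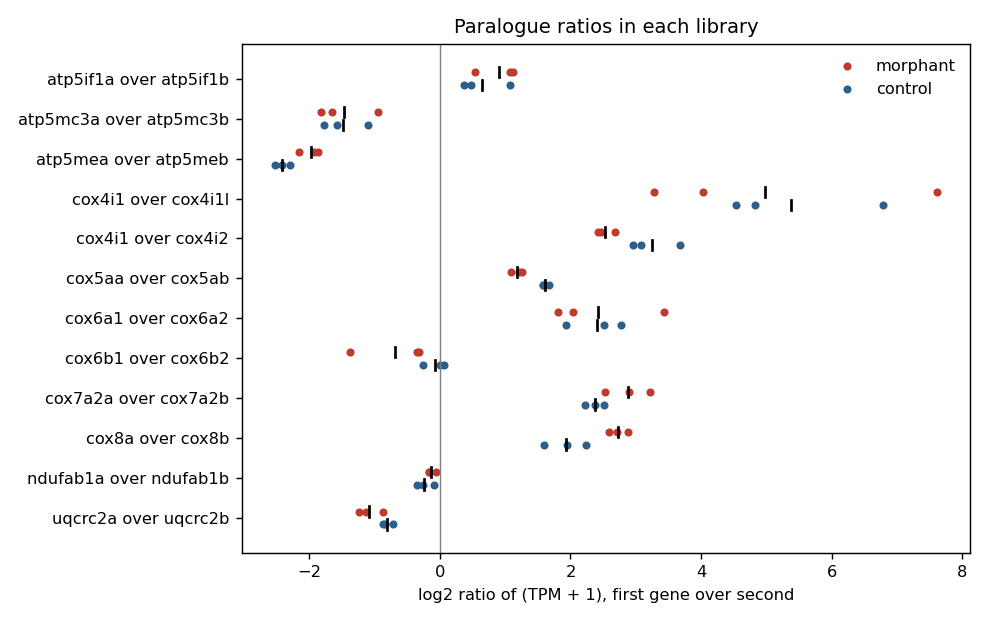
Each point is the log2 ratio of 2 paralogues in a library, from TPM plus 1, with the 3 morphants in red above the 3 controls in blue and the mean as a black bar. In 6 of 12 pairs, such as cox8a over cox8b and cox5aa over cox5ab, the colours do not overlap. No share over other gene pairs was computed.

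A few complex IV paralogues varied widely between libraries of the same group. cox7a1, the heart and muscle form of subunit 7a in mammals, read 31.2, 1.73 and 18.5 TPM in morphants 1 to 3 and 6.23, 0.97 and 2.14 TPM in controls 1 to 3 (log2 fold change 2.39, SE 1.09, adjusted p = 0.31). cox5b2 read 81.2, 6.56 and 47.7 TPM in morphants and 23.4, 7.52 and 23.3 TPM in controls (1.27, SE 0.88). cox4i1l read 59.2, 1.89 and 34.7 TPM in morphants and 20.5, 3.21 and 25.5 TPM in controls (0.87, SE 1.12). In all 3, morphants 1 and 3 were high and morphant 2 and control 2 low. cox6a2, the heart and muscle form of subunit 6a in mammals, was again high in morphants 1 and 3, at 186, 52.7 and 221 TPM in morphants and 83.1, 113 and 123 TPM in controls (0.58, SE 0.50), but there morphant 2 was the lowest. The muscle markers were highest in controls 1 and 3.

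As a list, genes of the pronephric tubule, the embryonic kidney, were also high in morphants 1 and 3 and low in morphant 2 and control 2. That list of 18 genes was drawn up after the values of these paralogues were seen. Its summed level was 1482, 97.9 and 676 TPM in morphants 1 to 3 and 261, 55.3 and 299 TPM in controls 1 to 3. cdh17, a cadherin that defines the tubule, read 441, 29.8 and 173 TPM in morphants and 69.2, 14.6 and 72.2 TPM in controls, and the chloride channel gene clcnk read 83.5, 2.56 and 32.0 TPM in morphants and 10.4, 2.42 and 9.73 TPM in controls. Of 16 tested genes of the list, 13 were highest in morphant 1, 2 in control 1 and 1 in control 3. The lowest library was control 2 for 12, control 3 for 3 and morphant 1 for 1. Log2 fold changes were positive for 13 and negative for 3, and ran from -3.02 to 2.80. cdh17 and clcnk, given above, were both among the 13 positive genes. At an unadjusted p under 0.05 in edgeR, 2 were higher (12.5%) and 1 lower, against 7.58% and 9.46% of all tested genes. The groups did not overlap for 0 higher and 1 lower, against 12.4% and 11.9% of all tested genes. DESeq2 called 0 higher and 1 lower, against 3.16% and 3.35%. By mean log2 CPM over genes, the oxidative phosphorylation genes and the tubule genes both ran from morphant 1 through morphant 3, control 1, control 3 and morphant 2 to control 2. Controls 1 and 3 were level for the oxidative phosphorylation genes (both 6.47). For the 91 structural subunits alone, control 3 came before control 1 (both 6.81). In summed TPM the orders differed, since morphant 2 lay above controls 1 and 3 for the oxidative phosphorylation genes and below them for the tubule genes. The mean log2 CPM ran between 6.94 and 5.58 for the oxidative phosphorylation genes and between 5.44 and 2.28 for the tubule genes. The 2518 tested genes under 1 kb, 79 of them oxidative phosphorylation genes, had the same order by this mean, between 3.92 and 3.43. That order was therefore not particular to the tubule genes. Of the defining tubule genes, slc12a1 was listed at 0 in control 2 and sim1a was under 1.1 TPM in all libraries. Genes of skin ionocytes, 8 in the table with 2 tested, summed to 9.13, 4.50 and 8.45 TPM in morphants. In controls they summed to 11.1, 24.7 and 8.60 TPM. foxi3a, which specifies ionocytes, was at 0.30 TPM or less in every library but control 2. At levels so low, their order over the libraries cannot be set against that of the tubule genes. The part of tubule cells or ionocytes in the levels of the oxidative phosphorylation genes was not tested.

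**Figure D4:**
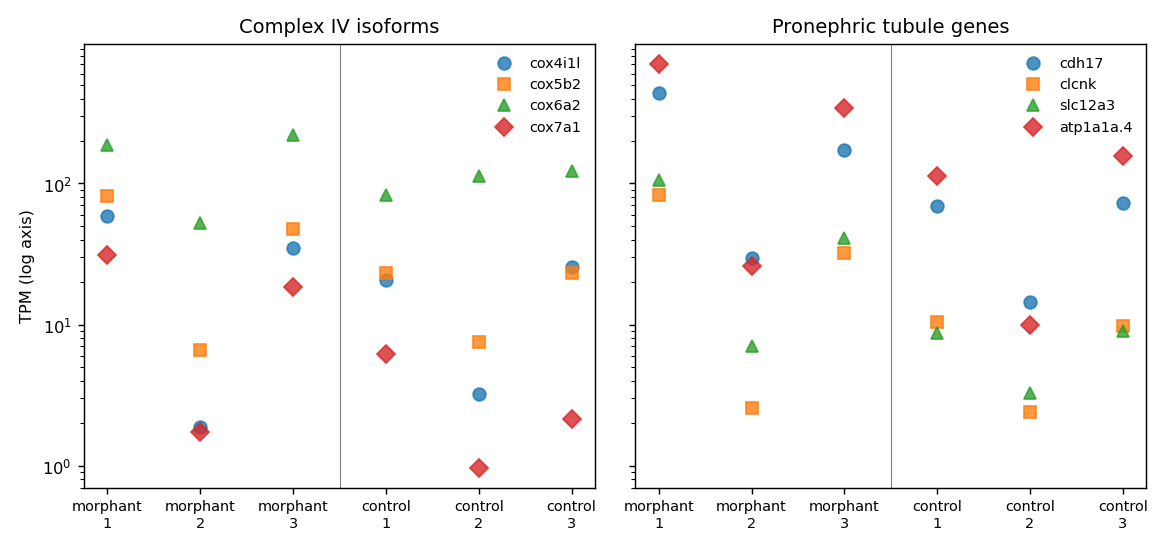
TPM on a log axis in each library for 4 complex IV paralogues (left) and 4 pronephric tubule genes (right), with morphants left of controls. In both panels morphant 1 and morphant 3 hold high values. Morphant 2 and control 2 are low for cox7a1, cox5b2 and cox4i1l (0.97 to 7.52 TPM) and for the tubule genes shown (2.42 to 29.8 TPM). Of the 16 tested genes of the whole tubule list, 13 had a positive log2 fold change and 3 a negative one.

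Most of these genes are short, and fold changes were related to gene length in these libraries. A length implied by the deposited counts and FPKM values could be derived only for genes with enough counts. Its median was 506 bp over the 102 genes described here that had one, against 1960 bp over all genes with one. Spearman's rho between this length and the log2 fold change was -0.58 over 102 oxidative phosphorylation genes and -0.29 over 17830 tested genes, which share the same 6 libraries and are not independent replicates. The 79 genes under 1 kb had a median log2 fold change of 0.55 and the 23 longer ones 0.25. Over all tested genes the medians were 0.19 under 1 kb, close to 0 from 1 to 4 kb and -0.47 at 4 kb and over. Control 2 read lower than the mean of controls 1 and 3 by a median of 0.88 on the log2 scale over these genes and by 0.05 over all tested genes with a length, and rho between length and that difference was 0.61 and 0.24. With a correction for gene length the median log2 fold change was 0.33. Over all genes it was close to 0, which follows from the fit, since the length trend was fitted over all tested genes. After the correction 88 of 102 genes were positive. Of the 102, 23 were higher (22.5%) and 1 lower at an unadjusted p under 0.05, against 9.09% and 7.12% of all tested genes. At an adjusted p under 0.05, edgeR with this correction called 0 of the 102 genes, against 0.18% of all tested genes higher and 0.0265% lower. Over the 102 genes rho was then -0.48. Without control 2 and with the correction the median was 0.24.

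**Figure D5:**
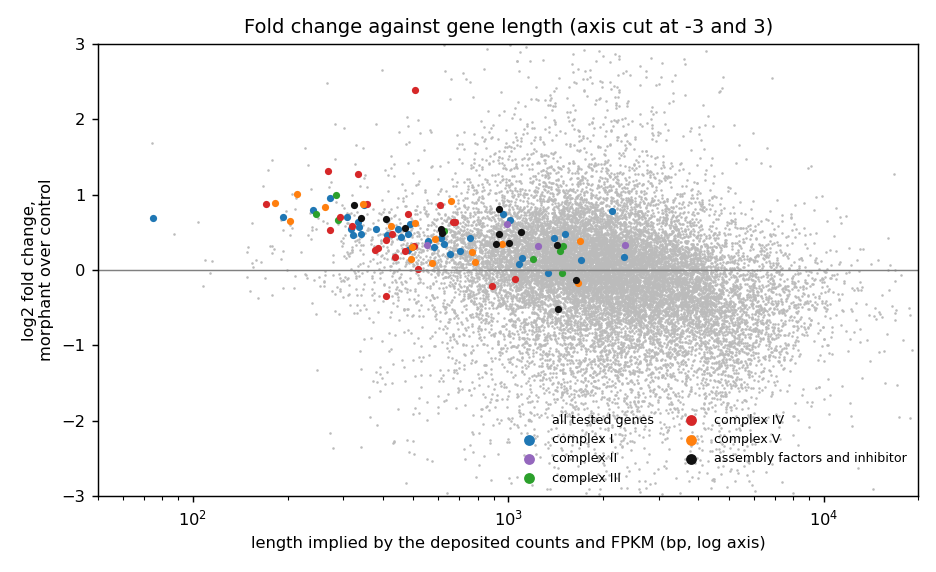
The log2 fold change, morphant over control, of each tested gene against its implied length in bp on a log axis, in grey for all genes and in colour by complex. The coloured points lie mostly left of 1 kb and above 0, and they slope down with length (rho = -0.58 over 102 genes).

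Neighbouring pathways were described by the same counts. Among 42 tested assembly factors of the complexes whose symbols lie outside the rule, 37 had a positive log2 fold change (median 0.37). At an unadjusted p under 0.05, 7 were higher (16.7%) and 0 lower, against 7.58% and 9.46% of all tested genes. Their summed level was 3041, 2500 and 2645 TPM in morphants 1 to 3 and 1934, 1951 and 1911 TPM in controls 1 to 3. In TPM control 2 was level with controls 1 and 3, while in mean log2 CPM it was the lowest library, at 4.13 against 4.46 and 4.44 in controls 1 and 3. Without control 2 the median log2 fold change of this list was 0.25. The most abundant were the copper chaperone cox17, at 447 ± 19.4 TPM in morphants and 301 ± 58.3 TPM in controls, and higd1a, at 376 ± 19.8 TPM in morphants and 231 ± 4.71 TPM in controls (SD, n = 3). higd1a had a log2 fold change of 0.71 (SE 0.19) and an adjusted p of 0.17 with edgeR and 0.02 with DESeq2. Of 19 tested genes of electron carriers and of subunits outside the rule, 16 were positive (median 0.23). At an unadjusted p under 0.05, 1 was higher (5.26%) and 2 lower, near the shares of all tested genes. cycsb, cytochrome c, read 918, 609.8 and 711 TPM in morphants and 563, 569.5 and 438 TPM in controls (0.53, SE 0.23), and cyc1, the cytochrome c1 of complex III, had a log2 fold change of 0.27 (SE 0.26). Of 19 tested genes of the TCA cycle and pyruvate dehydrogenase, 15 were positive (median 0.30), with 2 higher (10.5%) and 2 lower, also near those shares. suclg1, of succinyl-CoA synthetase, and idh2, of isocitrate dehydrogenase, were the most abundant, at 0.35 (SE 0.26) and -0.34 (SE 0.23).

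The carriers that exchange ATP, ADP and phosphate across the membrane, with the porins, had a median of 0.01 over 11 tested genes. slc25a5, the main adenine nucleotide carrier in these cells, read 5362, 5334 and 4938 TPM in morphants 1 to 3 and 5330.1, 5066 and 5454 TPM in controls 1 to 3 (-0.03, SE 0.23), and the phosphate carrier slc25a3b had a log2 fold change of 0.15 (SE 0.24). Named after their values were seen, slc25a4, the muscle form of the adenine nucleotide carrier in mammals, read 12.9, 27.6 and 17.9 TPM in morphants and 114, 46.4 and 137 TPM in controls (-2.44, SE 0.53, edgeR adjusted p = 0.13, DESeq2 adjusted p = 0.00019). The mitochondrial creatine kinase ckmt1 read 85.5, 5.39 and 33.4 TPM in morphants and 7.21, 4.49 and 6.18 TPM in controls (2.73, SE 0.87, edgeR adjusted p = 0.21, DESeq2 adjusted p = 0.008), high in morphants 1 and 3 as cox7a1 was. Regulators of mitochondrial transcription and biogenesis had a median of 0.04 over 18 tested genes. At an unadjusted p under 0.05, 0 were higher and 2 lower, against 7.58% and 9.46% of all tested genes. gabpa, an ETS-family activator of these genes, read 125, 133 and 138 TPM in morphants and 101, 154 and 129 TPM in controls (0.07, SE 0.17), and ssbp1, which binds mitochondrial DNA, had a log2 fold change of 0.14 (SE 0.17).

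Other large families of short or mitochondrial genes gave side-by-side values. Of 75 tested mitochondrial ribosomal protein genes, 12 were higher and 0 lower at an unadjusted p under 0.05 in edgeR. That share higher was above those of all tested genes (7.58%) and of the oxidative phosphorylation genes (7.84%). The median log2 fold change of the 75 was 0.38, with 74 positive, and their median length was 715 bp. Cytosolic ribosomal protein genes, 94 tested and shorter still at 384 bp, had a median of -0.22 with 15 positive, and proteasome subunit genes, 47 tested, had 0.18 with 42 positive. After the correction for gene length these medians were 0.20, -0.34 and 0.04, beside 0.33 for the oxidative phosphorylation genes. These differences between families were not tested.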

How the data were processed

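RNA-seq was done on 3 morphant and 3 control samples, and groups and replicate numbers come from the sample titles. The deposited estimated counts, FPKM and TPM values are the authors', per the file headers. Per the submitters' processing notes, the tools named are DESeq2 1.30.1, HTSeq 0.12.4 and HISAT2 2.2.1, on GRCz11, with no role given for any; the sources used here do not give the annotation or the strand setting. Counts divided by FPKM give a length that differs between libraries by a near constant number of bases at every length (from -9.3 to 4.6 bp around the gene's median under 600 bp), so TPM rests on a length reduced in each library, and levels of genes with the shortest implied lengths (15 under 300 bp, down to 75 bp) depend most on it. Of the 105 genes, 104 had only whole counts, and ndufa4l2a did not.

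Estimated counts were rounded. Genes kept by edgeR's filterByExpr (18846, with 102 of the 105; ndufs8b, sdhda and cox5b1 were not) were scaled by TMM and tested with edgeR 4.0.16 (quasi-likelihood, group as the only term, two-sided, R 4.3.3), with Benjamini-Hochberg adjustment over all tested genes and a threshold of 0.05. SE was derived from the F statistic. Sums and medians over gene lists are descriptions. Paralogues were pairs of members with at least 1 TPM on average, whose symbols differ by a final letter or number and that encode the same subunit. Alternatives were RLE scaling, TMM without these genes, DESeq2 1.42.0, limma 3.58.1 with voom, no filter, at least 5 CPM in 3 libraries, a replicate block, leaving out libraries, and a loess trend (span 0.5) on gene length as an offset; the last without control 2, overlap in TPM, and the tubule and ionocyte lists, were added after seeing the data. The tests were checked on simulated counts. The genes, lists and tests were chosen with earlier results of these data known. Genes named are, per complex, the 3 with the smallest p in each direction and the 2 most abundant, all sdh genes, tissue-restricted isoforms and paralogue pairs; from other lists, called genes or else the 2 most abundant; others were chosen after their values were seen. Of the table, 6 columns of group means were not used. The methylation table, in GRCz11 coordinates with no gene names, was not used here, and no coordinates are given, since the expression table holds none and the reference gene table at hand is of another build. The values of 1 gene of the set are not reported here individually.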

Additional observations from a re-analysis of the deposited data

How the results depend on the processing

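With 3 samples a group and a median SE of 0.31 on the log2 scale, no gene's difference passed the test with all 6 libraries. The median log2 fold change of the 102 genes was positive in every alternative run, from 0.24 (gene length offset without control 2) to 0.61 (without morphant 2), and over single libraries left out it ran from 0.26 to 0.61. No gene was called in any alternative but 1, with 5 higher when control 2 and morphant 2 were both left out. Those were the lowest libraries of their groups for these same genes. At an unadjusted p under 0.05, where 8 were higher and 0 lower, 19 were higher with DESeq2 (9.0% of all genes), 13 with limma-voom (8.34%), 15 of 105 with no filter (6.74%), 23 with a gene length offset (9.09%), 14 with that offset and without control 2 (10.8%), and 43 without control 2 and morphant 2 (11.7%). Leaving out single libraries gave 0 to 23 higher (4.44 to 7.93% of all genes) and 0 to 1 lower. In TPM the groups did not overlap for 48 higher and 1 lower, against 19 and 0 in CPM. Of the 102 genes, 1 was lower with the length offset, with it and without control 2, and without control 2 and morphant 2. With a replicate block 33 were higher at an unadjusted p under 0.05 (6.71% of all genes). At an adjusted p under 0.05, 0 of all genes were called with that block. Over all tested genes, same-numbered samples did not deviate together (correlations 0.03, -0.09 and -0.16). Over the 102 genes, morphant 2 and control 2 each had the lowest median deviation of their group (-0.07 and -0.82 log2 CPM). These values do not settle whether the numbers pair the samples. Signs turned in some named genes, each with a log2 fold change smaller than its SE. With the length offset, with that offset and without control 2, and without control 2 and morphant 2, atp5mc3a was at -0.058, -0.024 and -0.031 and cox4i1 at -0.13, -0.22 and -0.17; cox4i1 was at -0.022 with the stricter filter. With the length offset, and with it and without control 2, atp5mc3b was at -0.062 and -0.16, and cox6b1 at -0.013 and -0.14. In the second of these cox7a2b was at -0.056, ndufa4l2a at 0.068 and ndufs8a at 0.022, and ndufs8a was at 0.049 with limma-voom, 0.055 with the replicate block and 0.11 without control 2 and morphant 2. With single libraries left out, log2 fold changes ran from -0.14 to 0.30 for atp5mc3b, -0.22 to 0.16 for cox4i1, -0.10 to 0.53 for cox6b1, -0.036 to 0.52 for cox7a2b, -0.41 to 0.11 for ndufa4, -0.33 to 0.10 for ndufa4l2a, -0.35 to 0.018 for ndufaf2 and -0.34 to 0.26 for ndufs8a, and the uqcrc2a log2 fold change ran from -0.18 to 0.094. The differences in paralogue ratio ran from -0.26 to 0.20 for atp5mc3a over atp5mc3b, -1.73 to 0.44 for cox4i1 over cox4i1l and -0.48 to 0.33 for cox6a1 over cox6a2. The cause of these changes was not tested.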

Other observations

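Glycolysis and antioxidant genes, which the sections above leave out, were measured in the same libraries. Of 30 tested glycolysis genes, 11 had a positive log2 fold change (median -0.22). At an unadjusted p under 0.05 in edgeR, 2 were higher (6.67%) and 2 lower, against 7.58% and 9.46% of all tested genes. gapdhs, a glyceraldehyde-3-phosphate dehydrogenase gene and the most abundant of the list, read 4479, 3601 and 5302 TPM in morphants 1 to 3 and 2502, 2921 and 2532 TPM in controls 1 to 3 (log2 fold change 0.77, SE 0.24, edgeR adjusted p = 0.20, DESeq2 adjusted p = 0.028). All morphants lay above all controls. aldoaa, an aldolase gene, read 1155, 1210.0 and 1676 TPM in morphants and 1594, 1543 and 1762 TPM in controls (-0.29, SE 0.27). gapdh, another glyceraldehyde-3-phosphate dehydrogenase gene, went the other way from gapdhs and was named after its values were seen. It read 712, 1463 and 674 TPM in morphants and 2116, 979 and 1905 TPM in controls (-0.90, SE 0.46, edgeR adjusted p = 0.36).

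Of 18 tested antioxidant genes, 13 were positive (median 0.13). At an unadjusted p under 0.05 in edgeR, 2 were higher (11.1%) and 0 lower, against 7.58% and 9.46% of all tested genes. The most abundant were gpx4b, a glutathione peroxidase gene that protects membrane lipids, at 917, 920.3 and 978 TPM in morphants and 723, 555 and 701 TPM in controls (0.49, SE 0.26), and the peroxiredoxin gene prdx2, at 593, 418 and 517 TPM in morphants and 730, 673 and 627 TPM in controls (-0.41, SE 0.23). Named after its values were seen, prdx1 read 232, 233 and 289 TPM in morphants and 125, 154 and 114 TPM in controls (0.97, SE 0.18, edgeR adjusted p = 0.11, DESeq2 adjusted p = 0.00039).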
